A study of Mus musculus with 4 samples.

Results

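The cells described here are lung barcodes chosen by a rule for type 2 dendritic cells, and 157 of 28168 kept barcodes met it. A kept barcode had at least 250 genes, at most 15% mitochondrial UMIs and under 50% haemoglobin UMIs. A UMI is a molecular identifier that counts a captured RNA molecule once. Members held at least 20 UMIs of Cd74, at least 3 of H2-Ab1 and at least 1 of Cd209a or Mgl2. They held no Xcr1, Clec9a, Cd3e, Cd79a or Cxcr2 UMI and fewer than 5 summed UMIs of C1qa, C1qb and C1qc. These genes chose the members, so their levels, and every comparison of members with other cells, are a description with no test.

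Whole lungs came from 4 female FVB/NJ mice carrying the MMTV-PyMT transgene, in which a mammary tumour virus promoter drives the polyoma middle T oncogene in mammary epithelium. Pellets were implanted at 8 weeks of age and the lungs were taken 5 weeks later, at 13 weeks. In 2 mice the pellet held 5 mg tamoxifen, released over 60 days, and in 2 mice it was a placebo. All 4 mice carried the oncogene, each lung gave 1 10x Genomics 5' library, and the lungs were perfused and enzyme-digested, with no sort for dendritic cells named. With 2 mice per group, an exact permutation test over mice cannot give a p below 0.33.

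Type 2 conventional dendritic cells take up antigen in tissues such as the lung and present it on MHC class II to CD4 T cells. They depend on the growth factor receptor Flt3 and on the transcription factor Irf4, whereas type 1 cells depend on Irf8, carry Xcr1 and Clec9a and present antigen to CD8 T cells. Plasmacytoid dendritic cells are a separate lineage that carries Siglech and secretes type I interferon. Cd209a and Mgl2 encode C-type lectins that bind glycans, and Cd74 is the invariant chain that escorts MHC class II to the endosome.

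Promoters of classical MHC class II genes hold an element called the Y box. The sequences shown are the promoters of H2-Aa, a class II alpha chain gene abundant in members, and of H2-Eb1, a class II beta chain gene. They run from 250 bases before to 50 bases after the gene start and are the RefSeq sequences of GRCm38.p6, at chr17:34287774-34288073 on the minus strand and chr17:34305617-34305916 on the plus strand. The capitals mark CTGATTGG, the only motif searched, on both strands. It occurred in 4.1% of all 32851 promoters of this length, and once in each of these. It was also found in the promoter of H2-Oa and not in those of H2-DMa, H2-DMb1, H2-DMb2, H2-Ob, Cd209a, Mgl2 and Siglech.
H2-Aa: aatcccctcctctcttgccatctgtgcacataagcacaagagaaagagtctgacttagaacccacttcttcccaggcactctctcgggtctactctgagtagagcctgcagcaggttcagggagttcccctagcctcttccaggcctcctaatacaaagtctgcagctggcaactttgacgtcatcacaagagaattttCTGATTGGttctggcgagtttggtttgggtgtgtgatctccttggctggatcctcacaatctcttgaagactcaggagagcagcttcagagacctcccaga
H2-Eb1: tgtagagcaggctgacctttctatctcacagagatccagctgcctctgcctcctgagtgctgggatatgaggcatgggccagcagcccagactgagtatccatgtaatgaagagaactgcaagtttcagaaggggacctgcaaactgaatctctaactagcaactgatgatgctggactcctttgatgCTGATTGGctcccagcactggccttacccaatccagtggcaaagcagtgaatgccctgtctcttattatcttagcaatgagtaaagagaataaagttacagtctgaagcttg
The motif ended 44 bases before the start of H2-Aa and 55 bases before that of H2-Eb1. A match is a description of these letters and not a measured binding site. The build is not that of the FVB/NJ strain, and whether strain differences changed the counts of polymorphic class II genes was not tested.

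The limits left most antigen-presenting cells outside. Of the kept barcodes, 3698 reached the Cd74 limit, 3461 of these also the H2-Ab1 limit, and 990 of these held Cd209a or Mgl2. The limit on Xcr1 and Clec9a left 574 barcodes, that on the C1q genes 181 and that on Cd3e and Cd79a 165. Just inside the Cd74 limit, 7 members held 20 to 29 UMIs, and 7 barcodes that met every other limit held 10 to 19. Just outside the C1q limit lay 8 barcodes with 5 to 9 C1q UMIs, whereas 336 had 10 or more. Of the 157 members, 81 held both Cd209a and Mgl2, 56 only Cd209a and 20 only Mgl2.

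Libraries held 32646505 and 35625624 UMIs in tamoxifen mice, against 32728083 and 37285982 in placebo mice. Members had median totals of 8397.5 and 9343 UMIs in tamoxifen mice and 6631 and 11634 UMIs in placebo mice, so the 2 placebo mice were the lowest and the highest. Median Cd74 was 331.5 and 378 UMIs per member in tamoxifen mice and 117 and 660 in placebo mice. Kept libraries shared 61 to 77 barcode sequences per pair, and no member barcode was shared between members of 2 mice. A Scrublet doublet score over 0.25 was found in 1 and 0 members of tamoxifen mice and in 2 and 0 members of placebo mice.

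The data went against the label for part of the members, and the split made here rests on measured values and is likewise a description. Summed UMIs of the plasmacytoid dendritic cell markers Siglech, Ccr9, Cox6a2 and Klk1 were 0 in 116 members and 1 in 4 members, and no value fell between 1 and 6. The other 37 members held from 6 to 92 such UMIs, and 35 of them held at least 20. With a limit of 5 UMIs, these 37 plasmacytoid-marker members were 9 and 10 in tamoxifen mice and 15 and 3 in placebo mice. They made up 22.5% and 19.6% of members in tamoxifen mice and 33.3% and 14.3% in placebo mice, so the placebo values lay on both sides of the tamoxifen values.

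Nearly all plasmacytoid-marker members had entered through Cd209a, which 36 of 37 held, while 2 of 37 held Mgl2 (5.41%, exact 95% interval 0.662% to 18.2%). Siglech was found in all 37. Each also held at least 5 UMIs of Irf8, a transcription factor of type 1 and plasmacytoid dendritic cells, with a median of 22. None held a UMI of the chemokines Ccl17 or Ccl22, which allows a share of up to 9.49% by the exact 95% interval. Itgae was also at 0 of 37, and Itgam, the integrin CD11b, was in 1 of 37. Their median depth per mouse was 6428 to 8075 UMIs, against 7551.5 to 12370 UMIs for the other 120 members. Intervals cover counting error only.

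**Figure D1:**
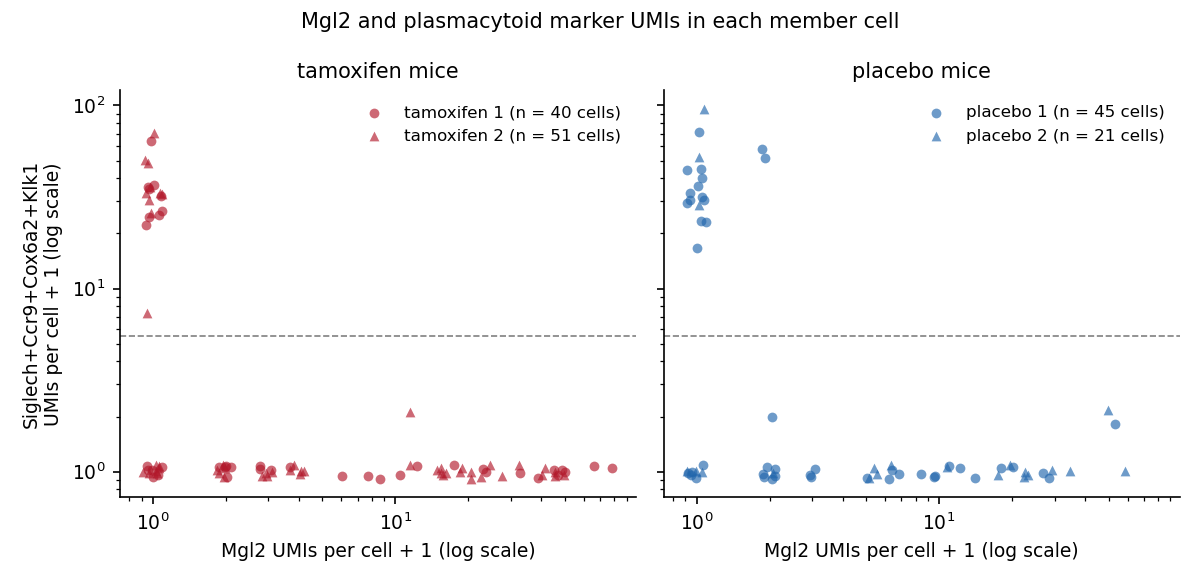
Each point is 1 member cell, with Mgl2 UMIs plus 1 on the horizontal and the summed UMIs of Siglech, Ccr9, Cox6a2 and Klk1 plus 1 on the vertical log axis; circles are mouse 1 and triangles mouse 2 of tamoxifen (left) and placebo (right). The 37 cells above the dashed line, the limit of 5 UMIs, had at most 1 Mgl2 UMI, and the 120 below had at most 1 plasmacytoid marker UMI.

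The other 120 members, 31 and 41 in tamoxifen mice and 30 and 18 in placebo mice, held type 2 genes that the rule did not use. Levels given here are CPM, a gene's UMIs for every 1000000 UMIs of the pooled cells of 4 mice. Irf4 was detected in 36 of these 120 cells (30.0%, exact 95% interval 22% to 39%), against 7.23% of 429 cells that held Xcr1 or Clec9a and met the other limits, with none set on Cd209a or Mgl2. At least 5 UMIs of Irf8 were found in 12 of 120 (10.0%), against 88.1% of the Xcr1 or Clec9a cells. Itgam was found in 49.2% of the 120, against 6.76% of the Xcr1 or Clec9a cells, but also in 40.4% of the C1q-high cells described further on. At least 5 UMIs of Irf8 were likewise rare in C1q-high cells, at 4.94%. Naaa, a lysosomal amidase listed as a type 1 marker, was at 396 CPM in the 120 members and at 1373 CPM in Xcr1 or Clec9a cells. Its detection differed less, at 73.3% of the 120 and 90.9% of the Xcr1 or Clec9a cells.

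The boundary with type 1 cells was not sharp in Cd209a and Mgl2. Mgl2 was in 82.5% of the 120 members and in 74.6% of the 429 Xcr1 or Clec9a cells, and Cd209a was in 84.2% of the 120 and in 55.0% of the 429. Of the 429 cells, 361 held either lectin. Siglech was in 29.6% of them, so that gate also held cells with plasmacytoid markers. Itgae, the integrin CD103 of type 1 cells, was in 48 of the 120 members and in 84.6% of Xcr1 or Clec9a cells. Of the 120, 29 held Itgae without Csf1r, 44 held Csf1r, the receptor for macrophage colony-stimulating factor, without Itgae, 19 held both and 28 neither. These per-cell shares depend on depth and were not thinned.

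The 120 members were close to their C1q-high neighbours in Mgl2 and apart from them in other genes. These neighbours were 344 barcodes that met all limits but the one on C1q. Mgl2 was at 1344 CPM in the 120 members and at 1282 CPM in C1q-high cells, of which 98.5% held it. Cd209a was at 1073 CPM in the 120 members and at 78.5 CPM in C1q-high cells. Ccl17 was in 49.2% of the 120 and in 1.74% of C1q-high cells, whereas Csf1r was in 52.5% of the 120 and in 98.0% of C1q-high cells. Lyz2, a lysozyme of macrophages and monocytes, was at 2915 CPM in the 120 members and at 9447 CPM in C1q-high cells.

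The genes furthest above all other kept barcodes came from both kinds of member. By ratio of mean levels, these were Cd209c at 106 times, Ccl17 at 61.6 times and Cd209a at 36.0 times the level elsewhere. Ccl17 and Ccl22, ligands of the T cell receptor Ccr4, were at 862 and 351 CPM in the 120 members and at 0 UMIs in the 37. Tnip3, an inhibitor of NF-kB signalling, at 266 CPM, Dcstamp, a membrane protein of fusing myeloid cells, at 258 CPM, and Il1rl1, the IL-33 receptor, at 76.2 CPM likewise came from the 120 alone. Cd209d was at 778 CPM in the 37 members and at 46.2 CPM in the 120, and Klk1b27 was at 271 CPM and at 0. Cd209a, Cd209c and Cd209d are paralogs, as are Mgl2 and Clec10a, and reads shared between near-identical stretches could be split between them.

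Antigen presentation separated the kinds as well. Cd74 was at 50672 CPM in the 120 members and at 10484 CPM in the 37, and H2-Aa was at 23766 and 5016 CPM. Cst3, a protease inhibitor abundant in conventional dendritic cells, was at 26550 CPM in the 120 and at 2331 CPM in the 37. Bst2, a membrane protein that tethers viruses and marks plasmacytoid cells, ran the other way, at 106 CPM in the 120 and at 5247 CPM in the 37.

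**Figure D2:**
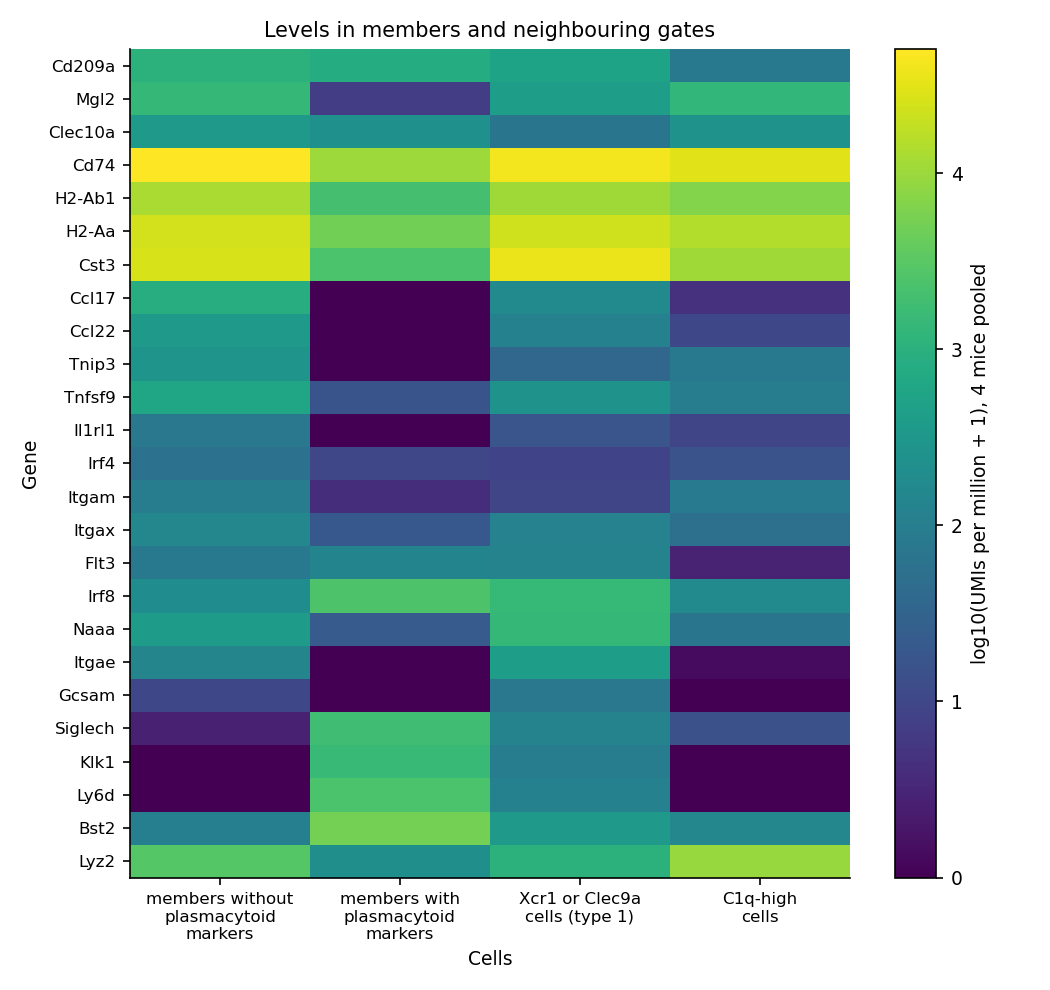
Colour gives the log10 of CPM plus 1 of 25 genes (rows), with the cells of 4 mice pooled, in the 120 members without and the 37 with plasmacytoid markers, in 429 cells with Xcr1 or Clec9a UMIs and in 344 C1q-high cells. Ccl17 is dark in the plasmacytoid-marker column (0 UMIs), and Siglech is bright there (1824 CPM).

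Genes of activation and maturation varied in how many members held them. Il1b, an inflammatory cytokine, was in 45.9% of the 157 members, and in 32.6% of the 144 deep enough to be thinned to 2000 UMIs each. After the same thinning it was in 10.9% of T cells. Without thinning, Il1b was in 54.2% of the 120 members and in 18.9% of the 37 plasmacytoid-marker members. T cells, which should lack most of these genes, held Il1b in 447 of 3532 cells (12.7%), Cd209a and Siglech in 0, Mgl2 in 4, Ccl17 in 1, Irf4 in 73 (2.07%) and Itgam in 150 (4.25%), at median depths of 2794 to 4039.5 UMIs. Cd83, a surface protein of mature dendritic cells, was in 95 members. Ccr7, which guides mature dendritic cells to lymph nodes, was in 14 members (8.92%), all among the 120. Of its UMIs, 60.2% came from 1 cell of tamoxifen mouse 2. Mki67, a marker of dividing cells, was in 11 members (7.01%), and after thinning in 1.39% of members and 1.25% of T cells. Among the 120, 35 held both Ccl17 and Ccl22, 24 only Ccl17, 6 only Ccl22 and 55 neither.

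Marker lists of other cells ran from nearly absent to clearly present. The T and NK list was at 0 for 10 of 15 genes, including Cd3d, Trac and Nkg7, and the mast cell and basophil list for 9 of 10. The B cell list was at 0 for 5 of 13 genes, including Ms4a1 and Pax5, but Ighm, the heavy chain of IgM, was in 88 members and Cd79b in 15. No gene of the classical or non-classical monocyte lists was at 0. Over all members the classical monocyte list summed to 1236 and 1238 CPM in tamoxifen mice and to 1561 and 1062 CPM in placebo mice. Ly6c2, a gene of that list, was in 32 of 37 plasmacytoid-marker members (86.5%) and in 8 of the other 120 (6.67%). Without thinning, 7.84% of T cells held Ly6c2. The non-classical monocyte list summed to 1330 and 1650 CPM in tamoxifen mice and to 1804 and 2585 CPM in placebo mice. The part of these other markers in the results was not tested. At least 10 stromal or endothelial UMIs were found in 1 and 6 members of tamoxifen mice and in 5 and 1 of placebo mice. Their summed list was at 854 and 2426 CPM in tamoxifen mice and at 2501 and 390 CPM in placebo mice, and 2 members of tamoxifen mouse 2 held at least 10 alveolar type 2 cell UMIs. Over 1% haemoglobin UMIs were found in 0 and 1 members of tamoxifen mice and in 6 and 0 of placebo mice. The summed red cell list was at 41.4 and 2154 CPM in tamoxifen mice and at 5116 and 62.9 CPM in placebo mice.

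The comparison asks whether long-term systemic tamoxifen, a ligand of oestrogen receptors, changed these cells. Their share did not separate the groups. Members were 40 of 6882 and 51 of 7308 kept barcodes in tamoxifen mice, or 0.581% (exact 95% interval 0.416% to 0.791%) and 0.698% (0.520% to 0.917%). In placebo mice they were 45 of 7530 and 21 of 6448, or 0.598% (0.436% to 0.799%) and 0.326% (0.202% to 0.497%). Placebo mouse 2 was the lowest, and placebo mouse 1 lay between the tamoxifen mice.

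The mean share was 0.640% ± 0.0825 in tamoxifen mice and 0.462% ± 0.192 in placebo mice (SD, n = 2 each), with p = 0.667 in a two-sided exact permutation test. As a share of barcodes that reached the Cd74 limit the order turned round, with means of 4.63% in tamoxifen mice and 4.87% in placebo mice (exact permutation p = 1). Without the plasmacytoid-marker members the shares in both tamoxifen mice lay above those in both placebo mice, with an exact permutation p of 0.33, the smallest the design allows. The same order held among members with Cd209a, among members with Mgl2 and without members with stromal RNA. It also held without all members with plasmacytoid, stromal, epithelial or red cell signal. The settings without plasmacytoid-marker or stromal members were chosen after seeing the data. The groups overlapped with Scrublet scores over 0.25 left out, with Cd74 limits of 10 or 40 UMIs and with C1q at 0. They also overlapped among barcodes with under 5 summed UMIs of the neutrophil genes Cxcr2, Csf3r and S100a8. The rule counts UMIs per barcode, so a share depends on depth, and the part of depth in these shares was not tested.

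**Figure D3:**
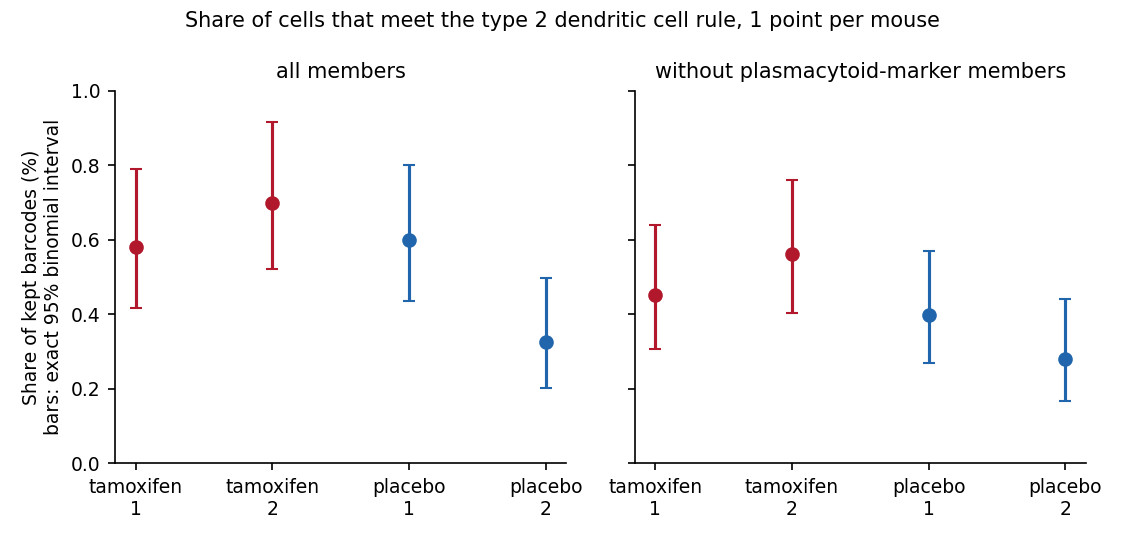
Points give the percentage of kept barcodes that met the rule in each mouse, with exact 95% binomial intervals for counting error, for all members (left) and without plasmacytoid-marker members (right). Tamoxifen mice are red and placebo mice blue; among all members the tamoxifen shares of 0.581% and 0.698% enclose the 0.598% of placebo mouse 1.

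Expression was compared on counts summed per mouse over members. With edgeR's quasi-likelihood test, 0 of 5037 tested genes passed an adjusted p of 0.05 (0% called). The unadjusted p was under 0.05 for 126 genes (2.5%), 60 (1.19%) higher and 66 (1.31%) lower in tamoxifen mice, and DESeq2 called 0 genes with 28 at an unadjusted p under 0.05. In 30.1% of tested genes the 2 groups did not overlap. Counts moved with single mice, to 82 calls without tamoxifen mouse 1, 47 without tamoxifen mouse 2, 0 without placebo mouse 1 and 10 without placebo mouse 2. A lone mouse in those fits is assumed to vary like the mice of the other group. Values that follow are TMM-scaled CPM, and every gene named has an edgeR adjusted p of 1.00, after rounding, unless another value is given.

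Lyz2 had the smallest unadjusted p of the genes that were higher. It is encoded at chr10:117277331-117282321 on the minus strand in mm10 coordinates. Its level was 3148 and 3256 CPM in tamoxifen mice, against 1310 and 1630 CPM in placebo mice. The groups did not overlap, as the choice of these genes required. The log2 fold change was 1.12 ± 0.19 (SE). It was found in 101 members, with 10.5% of its UMIs in the highest cell. In the 120 members without plasmacytoid markers the log2 fold change was 1.07, and without members that also showed stromal, epithelial or red cell RNA it was 0.60.

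Nr4a2 followed Mfap4 in order of unadjusted p among the genes that were lower. It is an orphan nuclear receptor of the immediate early class, at chr2:57106830-57124003 on the minus strand. It had 54.3 and 65.3 CPM in tamoxifen mice, against 159 and 212 CPM in placebo mice, a log2 fold change of -1.61 ± 0.30 (SE). Its groups did not overlap, by the same choice, and 40 members held it. All of its UMIs were in members without plasmacytoid markers, in which the log2 fold change was -1.66. Its paralog Nr4a3 had 114 and 223 CPM in tamoxifen mice, against 234 and 494 CPM in placebo mice (log2 fold change -1.09 ± 0.45, SE), and did not overlap. Nr4a1 had 980 and 1402 CPM in tamoxifen mice and 1322 and 2488 CPM in placebo mice, which overlapped.

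Several of the 12 genes with the smallest p and higher levels had most of their UMIs in 1 cell. Retnla, a secreted protein of alternatively activated macrophages, was found in 4 members, with 82.4% of its UMIs in 1 cell of tamoxifen mouse 1. The chemokine Cxcl1 was in 5 members, with 80.7% of its UMIs in 1 cell of tamoxifen mouse 2. Its level was 29.8 and 228 CPM in tamoxifen mice and 0 UMIs in both placebo mice. Mfge8, which binds dying cells for uptake, was in 37 members but had 65.1% of its UMIs in 1 cell, and the complement gene C3 had 64.2%. The part of these cells in the fold changes was not tested beyond leaving out members with stromal RNA.

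Apart from Lyz2, P4ha1, a subunit of the collagen prolyl hydroxylase, was found in 62 members, more than the other genes of these 12. P4ha1 had 84.1 and 90.6 CPM in tamoxifen mice, against 34.4 and 32.3 CPM in placebo mice (log2 fold change 1.38 ± 0.32, SE). Fabp5, a fatty acid binding protein, had 67.8 and 112 CPM in tamoxifen mice, against 28.1 and 32.3 CPM in placebo mice, in 24 members with 34% of its UMIs in 1 cell. Lpl, the lipoprotein lipase, found in 23 members, had 43.4 and 59.0 CPM in tamoxifen mice, against 18.8 and 9.23 CPM in placebo mice. Ahcyl2 was in 47 members and Gda in 31, whereas Hspb1 was in 22 and Ccn2 in 7, with 37.8% and 40% of their UMIs in 1 cell. These complete the 12, all chosen among genes with both tamoxifen mice above both placebo mice, which was so in 15.1% of all tested genes.

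Among the 12 lower genes, 5 were highest in plasmacytoid-marker members. Tsc22d1, a leucine zipper protein, had 114 and 94.8 CPM in tamoxifen mice, against 206 and 231 CPM in placebo mice. Its pooled level was 452 CPM in the 37 plasmacytoid-marker members and 47.9 CPM in the other 120. Runx2, a transcription factor of plasmacytoid and bone cells, had 51.6 and 25.3 CPM in tamoxifen mice, against 166 and 69.2 CPM in placebo mice. Its pooled level was 280 CPM in the 37 and 6.85 CPM in the 120. Ptprcap, Prkca and Atp2a1 showed the same concentration in the 37. The part of these cells' share in the fold changes was not tested for Runx2, Ptprcap, Prkca and Atp2a1, which fell under the filter on low counts without them. For Tsc22d1 the log2 fold change was -1.06 ± 0.26 (SE) in all members and -1.47 without them.

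The lower genes also held Mfap4 and Tcf21, genes of lung fibroblasts. Mfap4 had 48.8 and 94.8 CPM in tamoxifen mice, against 253 and 319 CPM in placebo mice, and only 10 members held it. Tcf21 was in 8 members, with 50.7% of its UMIs in 1 cell. AY036118, annotated as a long noncoding RNA, had 1061 and 1155 CPM in tamoxifen mice, against 1988 and 1800 CPM in placebo mice, in 149 members. Its log2 fold change was -0.77 ± 0.19 (SE). It spans chr17:39847113-39848035 on the minus strand, within Gm42418 at chr17:39846958-39848788 on the plus strand. Which transcript of this locus gave its reads was not tested. Mettl7a1, Snx29 and Mbtd1 complete the list, and in 15% of all tested genes both tamoxifen mice lay below both placebo mice.

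**Figure D4:**
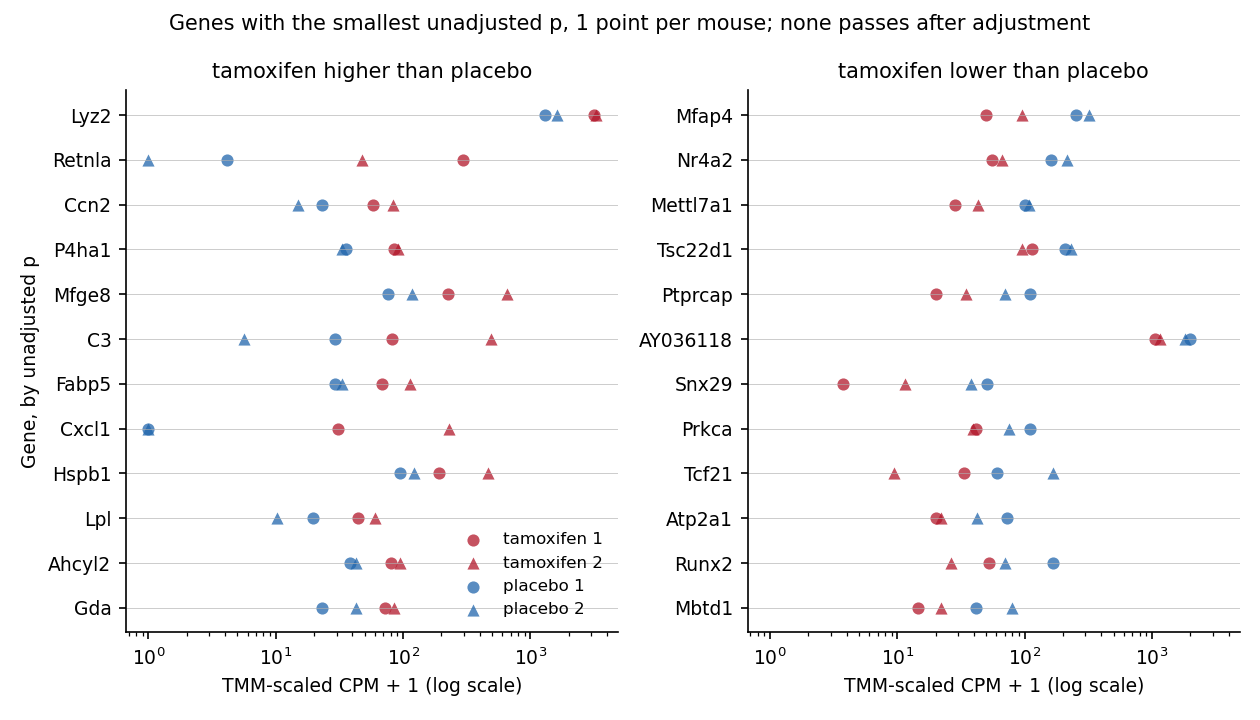
Points give the TMM-scaled CPM plus 1 (log axis) of each mouse for the 12 genes with the smallest unadjusted p that were higher (left) and lower (right) in tamoxifen mice, chosen among genes whose groups did not overlap. Tamoxifen mice are red and placebo mice blue, circles are mouse 1 and triangles mouse 2; Lyz2 lies at 3148 and 3256 CPM in tamoxifen mice and at 1310 and 1630 CPM in placebo mice.

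No member of any gene list passed the adjusted threshold, as for all genes (0% called). The median log2 fold change over all tested genes was 0.00, with 2520 higher and 2517 lower. Among MHC class II genes the median was -0.17, with 4 of 14 tested genes higher and 10 lower. H2-Aa had 23334 and 20570 CPM in tamoxifen mice and 19543 and 22111 CPM in placebo mice, which overlapped. H2-Eb1 had 166 and 209 CPM in tamoxifen mice and 163 and 328 CPM in placebo mice. The peptide editor H2-DMa and Ciita, the class II transactivator, had log2 fold changes of -0.12 ± 0.31 and -0.08 ± 0.29 (SE).

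The list of type 2 identity genes had a median log2 fold change of -0.03, with 15 of 32 tested genes higher and 17 lower. Irf4 had 59.7 and 63.2 CPM in tamoxifen mice, against 28.1 and 46.2 CPM in placebo mice, which did not overlap. Flt3 had 100 and 78.0 CPM in tamoxifen mice and 119 and 96.9 CPM in placebo mice. Il1rl1 had 81.4 and 78.0 CPM in tamoxifen mice, against 28.1 and 60.0 CPM in placebo mice. Its log2 fold change was 0.91 ± 0.41 (SE), with an unadjusted p of 0.0597. For Irf4 the log2 fold change was 0.77 ± 0.38 (SE).

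The NF-kB feedback and immediate early lists had more genes lower than higher, with none called. The maturation and migration list was even, with 9 of 18 genes higher and 9 lower and a median of -0.02. NF-kB feedback genes, which are induced by NF-kB and damp it, had a median of -0.31, with 2 of 18 higher and 16 lower. Both tamoxifen mice lay below both placebo mice in 1 of the 18 and above them in 1. Over all tested genes these shares were 15% and 15.1%. Nfkbia, the inhibitor of NF-kB, had 2141 and 3612 CPM in tamoxifen mice and 2157 and 4819 CPM in placebo mice, and Tnfaip3 had 393 and 403 CPM in tamoxifen mice and 209 and 854 CPM in placebo mice. In both genes placebo mouse 2 was the highest and the groups overlapped. Immediate early genes had a median of -0.16, with 10 of 32 higher and 22 lower. For Rgs1, a regulator of chemokine receptor signalling, the log2 fold change was -1.54 ± 0.52 (SE, unadjusted p = 0.0215).

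Cytokines and chemokines varied between mice of a group. Ccl17 had 638 and 590 CPM in tamoxifen mice and 481 and 1560 CPM in placebo mice. Il1b had 931 and 1621 CPM in tamoxifen mice and 866 and 2520 CPM in placebo mice, and placebo mouse 2 was again the highest. Ccl4, an inflammatory chemokine, had 692 and 333 CPM in tamoxifen mice and 2101 and 600 CPM in placebo mice. Ccl6 did not overlap, with 450 and 561 CPM in tamoxifen mice, against 319 and 328 CPM in placebo mice (log2 fold change 0.65 ± 0.24, SE). The list had a median of 0.06, with 8 of 15 higher and 7 lower.

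The heat shock, proliferation, and glycolysis and hypoxia lists had medians above that of all genes. The growth factor receptor list had a median below it, -0.16, with 12 of 30 higher and 18 lower. For heat shock genes the median was 0.23, with 13 of 17 higher and 4 lower. Hspa1b, a stress-induced chaperone, had 1357 and 672 CPM in tamoxifen mice and 678 and 812 CPM in placebo mice, which overlapped. For proliferation genes the median was 0.30, with 8 of 11 higher, and for glycolysis and hypoxia genes it was 0.18, with 11 of 15 higher. In tamoxifen mouse 1, 1 member of 35048 UMIs held 16 Mki67 UMIs, and its part in the proliferation median was not tested. Interferon response genes had a median of -0.08, with 6 of 16 higher. The plasmacytoid list had the lowest median of the dendritic cell lists, -0.49, with 1 of 10 higher and 9 lower. Its summed level was 2858 and 2384 CPM in tamoxifen mice and 5184 and 2123 CPM in placebo mice, with only placebo mouse 1 apart.

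Oestrogen and progesterone receptor genes were hardly detected. Esr1, the oestrogen receptor alpha, was found in 2 of 157 members (1.27%), against 0.793% of T cells, and Esr2, Gper1 and Pgr were at 0. A count of 0 in 157 members limits members with a UMI and not expression. Of 16 listed genes 9 could be tested, with 4 higher and 5 lower and a median of -0.03. Ncor1, a corepressor that binds tamoxifen-bound receptor, had 160 and 152 CPM in tamoxifen mice and 166 and 152 CPM in placebo mice.

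**Figure D5:**
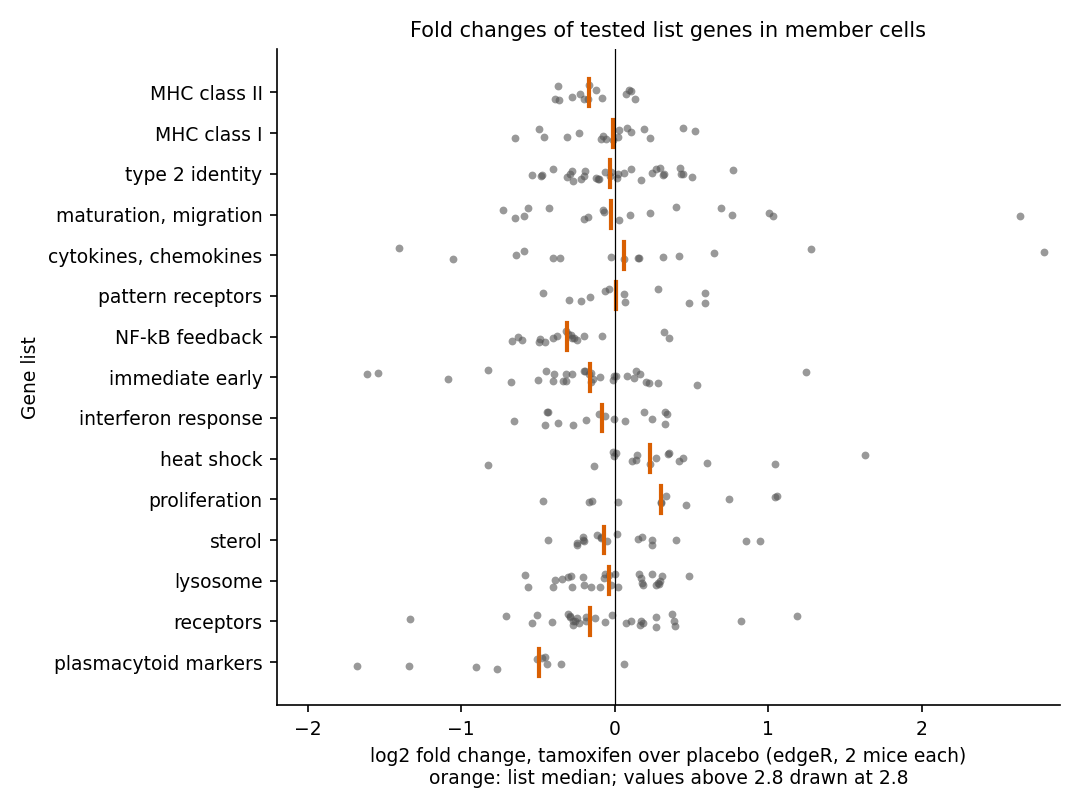
Each grey point is the edgeR log2 fold change, tamoxifen over placebo, of 1 tested gene of the list on the vertical axis, and the orange bar is the list median; values above 2.8 are drawn at 2.8. Medians of the lists drawn run from -0.49 in plasmacytoid markers to 0.30 in proliferation genes, beside 0.00 over all tested genes; the oestrogen receptor, Fc and adhesion, glycolysis and other cell marker lists are not drawn.

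The treatment effect was compared with that in type 1 cells by a cell type by treatment term with the mouse as a block. The type 1 gate required Xcr1 or Clec9a and no Cd209a or Mgl2, with no limit on plasmacytoid markers. It held 13 and 14 cells in tamoxifen mice and 36 and 5 cells in placebo mice, and its lowest summed depth was 53282 UMIs, in placebo mouse 2. Siglech was in 29.6% of the wider gate of 429 cells, and the part of such cells on the type 1 side was not tested. Of 5167 tested genes 2 were called (0.0387%), and 121 had an unadjusted p under 0.05 (2.34%). They were Hba-a1, an alpha globin, and C3, both with a difference in log2 fold change above 0. Hba-a1 had 4 and 415 UMIs in type 2 members of tamoxifen mice and 549 and 2 in those of placebo mice. In type 1 cells it had 0 and 0 UMIs in tamoxifen mice and 1680 and 2 in placebo mice.

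Globin RNA marks red cells, and 413 of the 415 UMIs in tamoxifen mouse 2 lay in 1 member. With the 429 cells that held any Xcr1 or Clec9a UMI as type 1 cells, 3 of 7364 genes were called (0.0407%), and Hba-a1 and C3 were not among them. The 3, named after their values were seen, were Sftpc, Sftpa1 and Tmem100, genes of lung epithelium and endothelium. With the narrower gate DESeq2 called 1 gene, Hba-a1. By edgeR, calls with that gate numbered 0 without tamoxifen mouse 1, 11 without tamoxifen mouse 2, 55 without placebo mouse 1 and 67 without placebo mouse 2.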

How the data were processed

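The authors deposited unnormalized UMI counts of 32285 genes in each barcode, aligned to mm10 per the submitters' processing notes. Those notes give Cell Ranger version 8.0.1, whereas per the file headers it was 5.0.0, and the version that made the counts is not settled. The members and gene lists were chosen with earlier results of these data known. Counts were summed per mouse over members and tested with edgeR 4.0.16 in R 4.3.3, by its quasi-likelihood F test with TMM scaling, filterByExpr and Benjamini-Hochberg adjustment over all tested genes. DESeq2 1.42.0 was an alternative. Genes of the membership rule stayed in the fits and are described only. Genes named are those called, the 12 per direction with the smallest p among genes whose groups do not overlap, the 4 most abundant of each list, the 20 with the highest level or ratio to other barcodes, the rule genes and a set of state genes, plus others named after their values were seen (Nr4a3, Rgs1, Ccl6, H2-Eb1, H2-DMa, Ciita, Flt3, Irf4 and Il1rl1 in the treatment comparison). Scrublet in scanpy 1.11.5 scored doublets; its automatic threshold marked 139 and 0 barcodes in tamoxifen mice and 0 and 1 in placebo mice, which was judged a failure, and a score of 0.25 served as an alternative only. No member was removed as a doublet. Replicate numbers are not tied by the labels to a litter or batch, and p-values measure the spread between these mice. Coordinates are those of GENCODE vM21 on GRCm38, the assembly of mm10, and promoter sequences came from RefSeq. The code was tested on simulated counts. For tamoxifen over placebo it recovered 89 of 100 simulated 4-fold changes and 100 of 100 8-fold changes, with 7 false calls. For the cell type by treatment term it recovered 90 of 200 8-fold changes, with 1 false call. The latter counts held no mouse effect shared by the cell types.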

Additional observations from a re-analysis of the deposited data

Results flagged for a closer look

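Hba-a1 and C3 differed in treatment effect between type 2 members and type 1 cells by the cell type by treatment term, with n = 2 mice per group and edgeR's quasi-likelihood test. The type 1 gate set no limit on plasmacytoid markers. For Hba-a1 the log2 fold change in type 2 members minus that in type 1 cells was 11.40 ± 1.05 (SE), with an adjusted p of 0.0119. In type 2 members 4 and 415 UMIs were counted in tamoxifen mice and 549 and 2 in placebo mice, and in type 1 cells 0 and 0 UMIs in tamoxifen mice and 1680 and 2 in placebo mice. With the wider type 1 gate the Hba-a1 difference turned round to -1.24. The calls of Hba-a1 and C3 both ended without tamoxifen mouse 1, without tamoxifen mouse 2 and with a replicate block in place of the mouse block. For C3 the difference was 6.38 ± 0.80 (SE), with an adjusted p of 0.0371. Type 2 members held 30 and 234 UMIs in tamoxifen mice and 9 and 1 in placebo mice, and type 1 cells held 1 and 3 UMIs in tamoxifen mice and 42 and 2 in placebo mice. A fitted log2 value of a gene with 0 UMIs in both tamoxifen mice of a type depends on the prior count and is no bound. The C3 call also ended with DESeq2, without plasmacytoid-marker members (4.39) and with the wider gate (2.52). The 176 C3 UMIs of 1 member of tamoxifen mouse 2 were most of the 274 in type 2 members.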

How the results depend on the processing

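The count of 0 calls between tamoxifen and placebo mice became 1 among Mgl2-detected members (Dcn, a fibroblast gene), 1 with the crossed replicate block (C3) and 113 without a filter on low counts, and ran from 0 to 82 when each mouse was left out in turn. The 2 calls of the cell type by treatment term became 1 with DESeq2, 36 without a filter, 0 with the replicate block in place of the mouse block and 8 without plasmacytoid-marker members, and ran from 0 to 67 when each mouse was left out. Hba-a1 turned round to -1.24 with the wider type 1 gate. The difference in share turned round to -0.239 percentage points among barcodes over the Cd74 limit. The cause of these changes was not tested. Deviations of same-numbered mice from their group means had a correlation of -0.238. The 2 mice of a group deviate by equal and opposite amounts, so the 0.238 for crossed numbers is the same value with its sign changed. This correlation cannot decide whether mice were paired. Numbers were not taken as pairs, as the labels tie them to no litter or batch. With the replicate block 0 genes were called between the groups. The 24 genes with the smallest p kept their sign in all 399 values computed under the alternatives. They were chosen from these data for groups that do not overlap, so a kept sign was largely fixed in advance and is no test. Of 420 list medians, 28 moved. The crossed block, the wider type 1 gate and the settings without plasmacytoid or stromal cells were chosen after seeing the data. Depth limits genes under the filter, and 21 members in placebo mouse 2 set the lowest precision.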
